A study of Homo sapiens with 4 samples.

Results

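The 10 genes described here are glutathione peroxidases (GPX1, GPX2, GPX3, GPX4, GPX7 and GPX8) and enzymes that make, recycle or use glutathione (GCLC, GCLM, GSR and GSTP1). They were chosen by gene name, as every non-control probe that the array design assigned to 1 of these symbols, and they are 10 of the 27223 genes tested. The set was put together because GPX1 had the largest rise on the GALNT3/T6-labelled arrays, so the values of that comparison chose the set and are given as a description with no test. Each array compared A2780s cells, an established human epithelial ovarian cancer (EOC) cell line, with a mock-transfected A2780s clone (Ctrl). The 2 GALNT3 KO arrays held 2 clones made with CRISPR/Cas9 against GALNT3, and the 2 arrays with the label GALNT3/T6 KO, here the GALNT3/T6-labelled arrays, held, by those labels, 2 clones in which shRNA against GALNT6 had been added to GALNT3 KO cells. Lentiviral transduction therefore went together with the second group, while the methods describe puromycin selection for both kinds of clone, and each array stood for 1 clone. By the labels Cy3 marked Ctrl and Cy5 marked KO on every array, so a dye effect of a probe cannot be told apart from the KO against Ctrl difference.

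Glutathione is a tripeptide that keeps the cell interior reduced. Glutamate-cysteine ligase, built from the catalytic subunit GCLC and the modifier subunit GCLM, makes its precursor in the rate-limiting step. Glutathione peroxidases use glutathione to reduce hydrogen peroxide and lipid hydroperoxides, GSR returns the oxidized form to the reduced one, and transferases such as GSTP1 join glutathione to electrophiles so that they can be cleared. In ovarian cancer this system is known for its part in the handling of oxidative stress and of platinum drugs. GPX1, GPX2, GPX3 and GPX4 carry selenocysteine at the active site, while GPX7 and GPX8 carry cysteine and lie in the endoplasmic reticulum.

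The sequences that follow show what was measured and what the promoters share. GPX1 was read by a single probe of 60 bases at chr3:49394621-49394680 on the minus strand of hg19, and GPX8 by 3 probes on the plus strand of chromosome 5. The last 30 bases of each are printed 5′ to 3′, since GPX1 carries the largest value and the GPX8 probes went in opposite directions. Capitals mark AATAAA, the letters of the usual polyadenylation signal.

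GPX1: aggcgagtttccccactAATAAAgtgccgg
GPX8 at chr5:54460254-54460313: gatgttacccaaagcaaaaatcaagagtag
GPX8 at chr5:54460333-54460392: agaattcagaatacacagtgaccaatgtgc
GPX8 at chr5:54463052-54463111: caacagagtgttagagactggAATAAAtat

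Promoters of 300 bases, running from 250 bases before to 50 bases after the start, were given by RefSeq (GRCh38.p14) for 9 of the 10 genes, all but GSR. The core of the antioxidant response element, TGACNNNGC, is the DNA motif bound by NRF2 (NFE2L2), the master regulator of the glutathione genes. It was searched on both strands and was found in 3 of the 9, and in 13.3% of all 35116 promoters of the same length. The 60 bases around each match are printed on the strand of the gene with the motif in capitals. In GPX2 and GCLM the match lay on the opposite strand and appears in reverse complement.

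GPX2, chr14:64942833-64942892, minus strand: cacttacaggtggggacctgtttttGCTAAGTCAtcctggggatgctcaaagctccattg
GSTP1, chr11:67583721-67583780, plus strand: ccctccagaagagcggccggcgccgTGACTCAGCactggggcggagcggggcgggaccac
GCLM, chr1:93909430-93909489, minus strand: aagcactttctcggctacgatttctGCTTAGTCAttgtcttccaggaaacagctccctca

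A match is a description of letters and not a site of binding. The 3 genes did not share a direction in the arrays, as their values below show. Of the 10 genes, 16 probes were found and 15 passed the filter on dim probes, the exception being a second GPX7 probe that was well above background in no channel. The probe that stood for each gene was well above background in both channels on all 4 arrays, so no value of the 10 genes is a bound. The GPX4 probe of 60 bases spans 625 bases of hg19, so it crosses an intron, while the other probes that stood for a gene span 60 bases. Exon and UTR positions of the probes were not given in the sources used here.

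GALNT3 and GALNT6 were read first. The GALNT3 probe was well above background in neither channel on the GALNT3 KO arrays, so it checks nothing there. On the GALNT3/T6-labelled arrays its log2 ratio of KO over Ctrl was 4.80 and 5.08, against the label. The GALNT6 ratio was -0.66 and -0.69 on those arrays and -0.47 and -0.38 on the GALNT3 KO arrays. The GALNT3/T6-labelled arrays stood apart in the markers of ovarian epithelial carcinoma, where 6 of 8 markers were called higher and none lower. Of all genes 24.8% were called higher and 23.1% lower there. The mean log2 ratio was largest for the keratins KRT18 (5.68), KRT7 (2.89) and KRT8 (2.83). PAX8 (1.21), WT1 (1.01), CDH1 (0.75), EPCAM (0.65) and MUC16 (0.06) lay closer to Ctrl. The summed KO signal of the 8 markers lay between 521515 and 529756 on those arrays and between 6961 and 7656 on the GALNT3 KO arrays, with Ctrl between 6066 and 25658. The summed KO signal of the 5 fibroblast markers was also higher there, between 6620 and 12371. It was 1694 to 1937 in GALNT3 KO, with Ctrl at 2184 to 3458. The single fibroblast markers were split, with 2 called higher and 2 lower, beside the same shares of all genes. PDGFRB had a mean of 3.44 and COL1A1 of 1.99, whereas COL1A2 (-0.32), DCN (-0.37) and LUM (-1.19) lay below Ctrl. Of the endothelial markers VWF, at a mean of 1.32, and CDH5, at -0.15, were well above background on all arrays and PECAM1 on none. The summed KO signal of VWF and CDH5 lay between 737 and 1045 there and between 563 and 783 in GALNT3 KO. The summed KO signal of 4 leukocyte markers lay between 3539 and 3867 on all arrays. The part of this shift in any value of the GALNT3/T6-labelled arrays was not tested.

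In GALNT3 KO against Ctrl, GPX1 rose 1.56-fold, both subunits of glutamate-cysteine ligase fell, and the other 7 genes did not pass the test. GPX1, the cytosolic peroxidase, had log2 ratios of 0.62 and 0.65. Its mean was 0.64 (SE 0.10, n = 2), with an adjusted p of 0.0353 by limma. Each SE here comes from the fit, whose spread was shared by all 4 arrays, including the 2 that chose the set. The SD of GPX1 between the 2 GALNT3 KO arrays was 0.02. GCLM stood at -0.78 and -1.0, a mean of -0.89 (SE 0.17, n = 2, adjusted p = 0.0460 by limma). Its fall was the largest of the 10 genes, at 1.85-fold. GCLC stood at -0.47 and -0.75, a mean of -0.61 (SE 0.12, n = 2, adjusted p = 0.0452 by limma). Both arrays gave the same sign for each of the 3 genes. The 3 calls, 1 higher and 2 lower, compare with 4.69% of all genes called higher and 6.35% called lower. At the study's criterion, an unadjusted p up to 0.05 with 1.5-fold or more, it was again 1 higher and 2 lower, beside 3.23% and 6.37% of all genes. The median of the 10 genes was -0.22, and that of all genes was 0.02. With either GALNT3 KO clone left out 1 array stood for the group, so no call could be checked on a single clone. The log2 ratio without clone 1 or without clone 2 was 0.65 or 0.62 for GPX1. It was -1.0 or -0.78 for GCLM and -0.75 or -0.47 for GCLC. With the 2 GALNT3 KO arrays alone the number of the 10 genes called was 6, with 1 higher and 5 lower. The spread was then taken from those arrays alone, and 34.7% of all genes were called.

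The size of the GPX1 change in GALNT3 KO depended on the normalization. It was 1.12 with Agilent's own log ratio, which kept the call (adjusted p = 0.0246 by limma), and 0.52 with median centring, which did not (adjusted p = 0.0850 by limma). Its adjusted p lay between 0.00167 and 0.411 over 13 alternatives. Neither ligase subunit passed the test with Agilent's log ratio, where the mean was -0.60 for GCLM (adjusted p = 0.114 by limma) and -0.79 for GCLC (adjusted p = 0.0639 by limma). With median centring their adjusted p by limma was 0.0599 and 0.0539. GCLC moved to -0.33 (adjusted p = 0.134 by limma) where all its probes were averaged, because its other probe read 0.03 and -0.11.

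Of the peroxidases that did not pass the test in GALNT3 KO, GPX4, which reduces phospholipid hydroperoxides in membranes, had log2 ratios of 0.15 and 0.48 and a mean of 0.31 (SE 0.11). GPX2, a peroxidase of the gut epithelium, stood at 0.18 and 0.35. The secreted GPX3 stood at -0.26 and -0.06. The GPX7 probe read -0.32 and -0.30, a narrow spread with a mean of -0.31 (SE 0.08, adjusted p = 0.0709 by limma). GPX8 was split around 0, at -0.26 and 0.02. GSR, which passed the test with median centring only among the scalings (-0.55, adjusted p = 0.0437 by limma), stood at -0.27 and -0.31 and GSTP1 at -0.25 and -0.40, so both lay below 0 on either array. Of the 10 genes 3 had a mean above 0, all of them selenocysteine peroxidases, and 7 a mean below 0, but with Agilent's log ratio GPX3 (0.15) and GPX7 (0.11) lay above 0, as did GSTP1 with median centring (0.04).

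On the GALNT3/T6-labelled arrays the 10 genes spread far more widely, and GPX1 had the highest mean of the 27223 genes. Its log2 ratios were 6.86 and 7.14, a mean of 7.0 (SE 0.10, n = 2) or 128-fold. S100A6, at a mean of 6.97, lay within that SE, and PODXL stood at 6.75. On the second array S100A6 read 7.19, above GPX1. The other peroxidases split in the direction of the change. GPX4 stood at 1.55 and 1.57 and GPX8 at 1.5 and 1.29, on either array above 1 log2 unit. GPX2 was slightly above Ctrl, at 0.40 and 0.33. The secreted GPX3, at -0.34 and -0.36, and the reticulum enzyme GPX7, at -0.53 and -0.57, were below Ctrl. With Agilent's log ratio the means lay closer to 0, at 1.06 for GPX4, 0.19 for GPX2, -0.11 for GPX3 and -0.22 for GPX7.

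The enzymes that make, recycle and use glutathione did not move as a block. GCLC stood at -1.16 and -0.91, below Ctrl as in GALNT3 KO. GCLM stood at 0.50 and 1.12, above Ctrl, so the 2 subunits of the same ligase, by the probes that stood for them, lay on opposite sides of 0. GSR, the reductase, stood at -0.23 and -0.43. GSTP1 differed in sign between the clones, at -0.68 and 0.35, although its probe was printed 10 times on each array. The spot SD of GSTP1 was 0.09 (8 spots kept) on the first array and 0.24 (10 spots) on the second. The mean of GSTP1 was -0.16, and it became 0.35 without clone 1 and 0.38 with median centring. By the fit 5 of the 10 genes were called higher and 4 lower, beside 24.8% and 23.1% of all genes, and at the study's criterion 4 higher and 1 lower, beside 14.6% and 17.2%. Nothing is read from these counts because the comparison chose the set.

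The per-channel values show where the ratios came from. The Ctrl and KO channels were set on a common scale across arrays by quantile normalization of the mean brightness. For GPX1 the KO channel was at 10.38 and 10.89 log2 units on the GALNT3 KO arrays and at 18.31 and 18.05 on the GALNT3/T6-labelled arrays. Its Ctrl channel was at 9.75 and 10.24 on the first pair and at 11.45 and 10.91 on the second. The Ctrl channel of GPX1 was thus brighter by 1.18 log2 units where the KO channel was brighter by 7.55, and the part of this in the ratio was not tested. For the other 9 genes the Ctrl channel varied by at most 0.51 log2 units over the 4 arrays. The KO channel of GCLM was brighter by 1.5 on the GALNT3/T6-labelled arrays than on the GALNT3 KO arrays, that of GPX8 by 1.47 and that of GPX4 by 1.18. The GCLC KO channel was dimmer by 0.49 there.

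**Figure D1:**
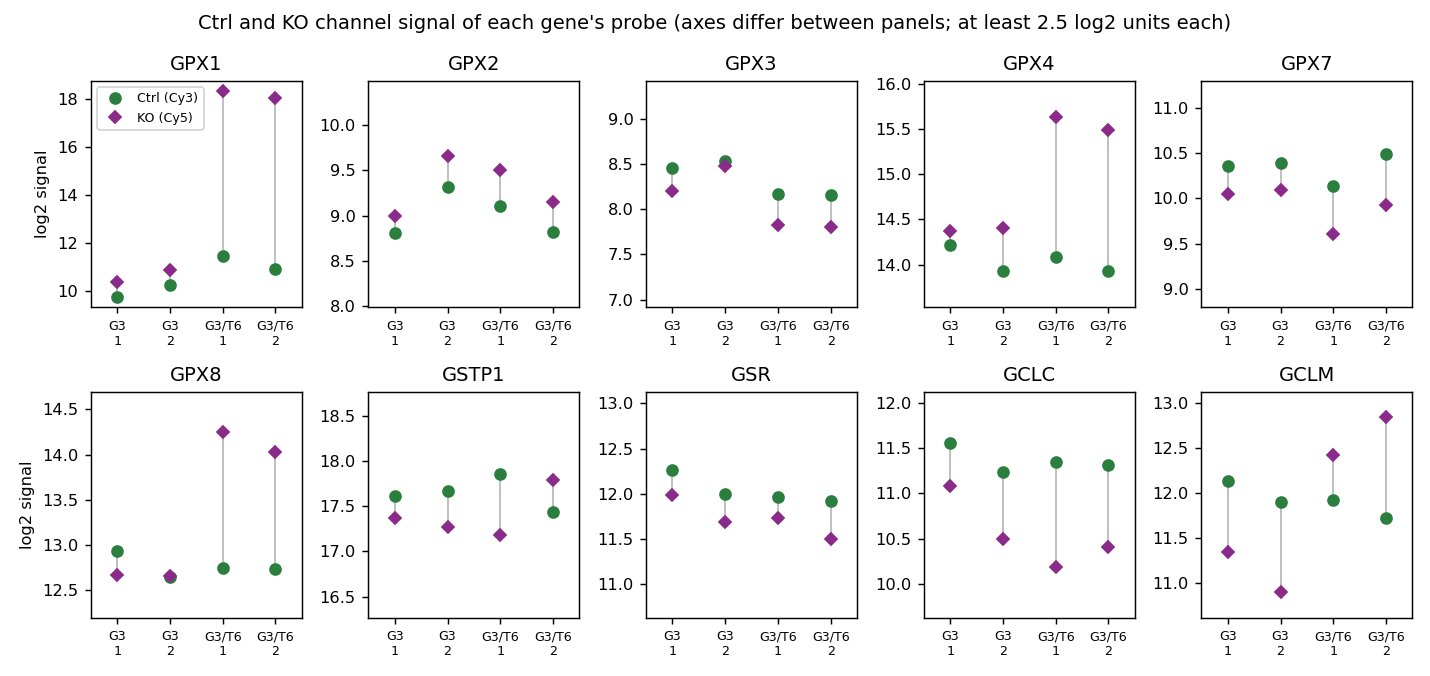
Normalized log2 signal (y axis) of the Ctrl channel (green circles) and the KO channel (purple diamonds) of the probe that stood for each of the 10 genes, on the GALNT3 KO arrays (G3) and the GALNT3/T6-labelled arrays (G3/T6). The KO signal of GPX1 lies near 18 on both G3/T6 arrays, and the Ctrl signal there, 11.45 and 10.91, lies above the 9.75 and 10.24 of the G3 arrays.

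Set side by side, the groups did not overlap for 7 of the 10 genes, beside 61.0% of all genes. GPX1 lay 6.36 log2 units higher on the GALNT3/T6-labelled arrays than on the GALNT3 KO arrays. GCLM lay 1.69 higher, GPX8 1.52 higher and GPX4 1.25 higher. GCLC, GPX7 and GPX3 lay lower, by differences of -0.42, -0.25 and -0.20. The groups overlapped for GPX2, GSR and GSTP1. GCLM was the 1 gene of the 10 whose arrays were all below 0 in one group and all above 0 in the other.

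GPX8, GSR, GCLC and GCLM had more than 1 probe above background, and the probes of a gene did not always go in 1 direction. GPX8 was the widest case on the GALNT3/T6-labelled arrays. Its 2 probes nearer the 5′ end read 1.59 and 1.24 (10 spots each) and 1.5 and 1.29, whereas the probe nearest the 3′ end read -2.81 and -2.51. In GALNT3 KO the same 3′ probe read -0.85 and -0.83, and the 2 others lay between -0.32 and 0.02. The direction of GPX8 is therefore given for the 2 probes that lie together and not for the transcript as a whole, and the mean over its 3 probes was 0.05.

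The 2 GCLC probes also went in opposite directions on the GALNT3/T6-labelled arrays. The probe nearer the 3′ end, which stood for the gene, had a mean of -1.03, and the other, 1244 bases closer to the 5′ end in the genome, read 0.38 and 0.85. The GCLM probes agreed in sign, with 0.05 and 0.39 for the 3′ probe beside 0.50 and 1.12. The 3′ probe of GSR read -1.61 and -1.10, lower than the probe that stood for the gene. Averaged over its probes GCLC had a mean of -0.21 there and GSR one of -0.84. In all 4 genes the probe nearest the 3′ end was lower than the one nearest the 5′ end on both of these arrays, by -4.08 for GPX8, -1.65 for GCLC, -1.03 for GSR and -0.59 for GCLM. Over the 7794 genes with several such probes the 3′ probe was lower on both arrays in 47.5% and the median difference was -0.09, and in 31.2% the outermost probes had opposite mean signs. In GALNT3 KO the 3′ probe was lower on both arrays in 3 of the 4 genes and in 40.6% of all such genes. This comparison of probes was chosen after the values were seen. Which isoforms the probes tell apart was not tested.

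By the Euclidean distance between the log2 ratios on the 4 arrays, the genes nearest to GPX1 were S100A6 (0.47), ANXA3 (0.99), PODXL (1.0), PHLDA1 (1.15) and ALDH1A3 (1.39). S100A6, a calcium-binding protein, read 0.18 and 0.57 in GALNT3 KO and 6.76 and 7.19 on the other arrays. The 3 measured genes on either side of GPX1 on chromosome 3, in the order of RefSeq (GRCh38.p14), stayed far below it on the GALNT3/T6-labelled arrays. USP4, next to it on one side, had a mean log2 ratio of 0.41, C3orf62 of 0.02 and KLHDC8B of 0.77. RHOA, the small GTPase next to it on the other side, had a mean of 0.35, TCTA of -0.08 and AMT of -0.50.

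The 7 lists of 102 further genes of the pathway were all measured. In GALNT3 KO 4 of the 102 were called higher and 12 lower (limma, adjusted p at most 0.05), and 86 were not called, beside 4.69% of all genes called higher and 6.35% lower. In the other group 36 were called higher and 32 lower, 66.7% in either direction beside 47.8% of all genes (24.8% higher and 23.1% lower). The counts of single lists below stand beside the same shares. Between the groups 40 of the 102 differed, 20 in each direction, beside 23.7% of all genes (11.8% higher and 11.9% lower). The medians of the 102 genes were 0.01 and 0.06, and those of all genes 0.02 and 0.03. With either GALNT3 KO clone left out none of the 102 genes was called in GALNT3 KO by limma, with 20 and 22 of them at an unadjusted p under 0.05, and with either of the other arrays left out 43 were called. With Agilent's log ratio 4 were called in GALNT3 KO, beside 590 of all genes. Of the genes named below CHAC2, GSTM3, GLRX, PRDX5, SECISBP2, SEPSECS, MSRB1, TXNRD3 and NFE2L2 then no longer passed the test.

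Among 13 genes of glutathione synthesis and supply, 1 was called lower in GALNT3 KO, CHAC2, which degrades glutathione, with log2 ratios of -0.92 and -0.86. In the other group 6 were called higher and 3 lower. The largest changes there were those of OPLAH, which returns 5-oxoproline to glutamate, at -3.11 and -3.41, and CBS, which feeds homocysteine toward cysteine, at -2.45 and -2.20.

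Of 19 glutathione S-transferases 1 was called higher and 3 lower in GALNT3 KO, and 11 higher and 4 lower on the GALNT3/T6-labelled arrays. The microsomal transferase MGST1 was higher in both, with means of 0.89 and 2.96. GSTM3 fell in GALNT3 KO, to a mean of -1.10, and read 1.89 and 1.93 on the other arrays. GSTO2, which reduces dehydroascorbate, read 2.95 and 3.12 there after -0.06 and 0.16 in GALNT3 KO, and its mean there was 1.5 where all its probes were averaged. Probes of the near-identical GSTA and GSTM genes may share signal, so single members of these 2 families are uncertain.

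Of 19 other peroxide-removing enzymes and dithiol carriers 1 was called higher and 2 lower in GALNT3 KO, and 3 higher and 7 lower on the GALNT3/T6-labelled arrays, where the median of the list was -0.46. PRDX1, a peroxiredoxin, fell in both groups, at means of -0.85 and -1.47. GLRX, which removes glutathione from protein thiols, had means of -1.06 and 0.93. The mitochondrial superoxide dismutase SOD2 read 0.01 and -0.02 in GALNT3 KO and 2.30 and 2.32 on the other arrays, where the mean over all its probes was 1.42. PRDX5 was higher in both, at means of 0.60 and 1.62.

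Of the 9 other glutathione-using enzymes 1 was called higher and 1 lower in GALNT3 KO, and 2 higher and 3 lower on the GALNT3/T6-labelled arrays. HPGDS, the prostaglandin D synthase of the sigma transferase class, turned the most between the groups, from 2.18 and 2.40 in GALNT3 KO to -2.04 and -2.25. PTGES, a prostaglandin E synthase, was called lower in GALNT3 KO. Its KO signal there was not well above background in either clone, so the size of its fall is uncertain. With a floor on that signal it was 1.24-fold lower. That value sets the mean Ctrl signal against the higher of the probe's own KO signal and the lowest KO signal well above background on each array. It is not a strict bound, since a probe not well above background can lie above that lowest signal. ESD, which hydrolyses S-formylglutathione, had a mean of -1.39 on the GALNT3/T6-labelled arrays.

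The 8 genes of selenocysteine insertion, which GPX1, GPX2, GPX3 and GPX4 need for their translation, had 2 called lower and none higher in GALNT3 KO. SECISBP2, which binds the selenocysteine insertion element, read -0.85 on both arrays, and SEPSECS, which makes selenocysteine on its tRNA, had a mean of -0.43. The GALNT3/T6-labelled arrays had 5 of the 8 called lower and 2 higher, with SECISBP2 at a mean of -1.57 and TRNAU1AP, a partner of the tRNA, at 1.38. The mean over all probes of TRNAU1AP was 0.52.

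Of 19 other selenoproteins 3 were called lower and none higher in GALNT3 KO, among them MSRB1, a methionine sulfoxide reductase, at -0.75 and TXNRD3, a thioredoxin reductase, at -0.54. On the GALNT3/T6-labelled arrays 6 were called higher and 7 lower. TXNRD1, the cytosolic thioredoxin reductase, read 2.0 and 2.33 there, and SELK (now SELENOK) read 2.23 and 1.26.

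Of 15 regulators and targets of NRF2 only NFE2L2 itself was called in GALNT3 KO, at 0.91 and 0.88, while GCLC and GCLM, both textbook targets of NRF2, were called lower. Of the same 15, 6 were called higher and 3 lower on the GALNT3/T6-labelled arrays. FTH1, the ferritin heavy chain, read 3.88 and 4.97, with the limit that its many pseudogenes may share signal, and the autophagy receptor SQSTM1 read 2.54 and 2.85. The 3 called lower were NQO1, at -1.93 and -2.25, KEAP1, at -0.95 and -0.62, and CUL3, at -0.61 and -0.57.

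**Figure D2:**
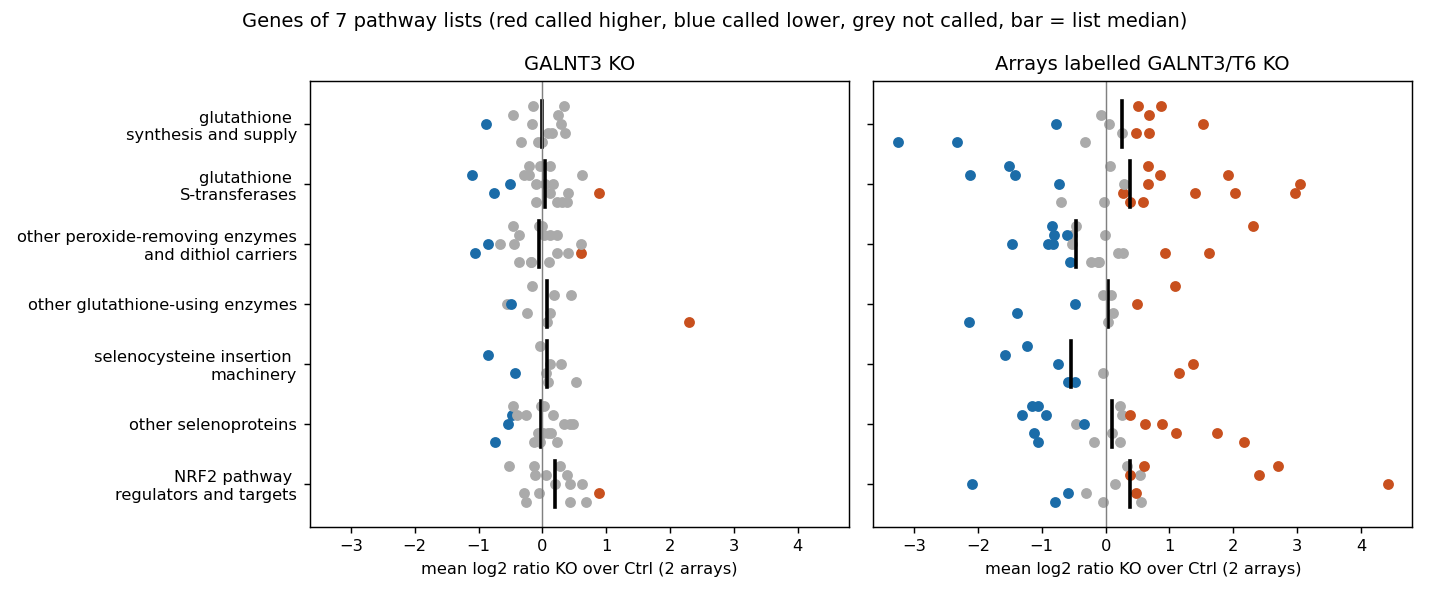
Mean log2 ratio of KO over Ctrl over 2 arrays (x axis) of each gene in the 7 lists (rows), for GALNT3 KO on the left and the GALNT3/T6-labelled arrays on the right, with red for genes called higher, blue for genes called lower, grey for genes not called and a black bar for the median of the list. The genes lie closer to 0 on the left, where HPGDS at 2.29 stands alone, and reach from -3.26 to 4.42 on the right.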

How the data were processed

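The authors extracted the spot intensity values of 4 two-colour arrays, which lay on 1 slide, with Agilent Feature Extraction (version 8.5.1.1 in the submitters' processing notes, 10.7.3.1 in the file headers). The deposited table of log10 ratios equalled the log10 ratio in the scanner files within 0.005 and served as an alternative. Here the mean intensities were corrected with normexp (offset 50), the dyes were normalized by loess with control spots at weight 0, outlier-flagged spots (84 to 162 an array) were left out and spots of a probe were averaged. Each array held 45015 spots, 1639 of them controls, and 86.9% to 93.8% of the others were well above background in a channel. Each gene was represented by the brightest of its probes that passed, a probe passing where both arrays of a group had a channel well above background. limma 3.58.1 in R 4.3.3 fitted a mean per group over the 4 arrays, with Benjamini-Hochberg adjustment over all genes and calls at an adjusted p of at most 0.05. The pipeline was tested on simulated data. Replicates are clones, their number limits the precision, and no Ctrl was hybridized against Ctrl, so its spread is left out. The methods describe reverse-colour labelling of Ctrl, which does not settle whether dyes were swapped. The directions follow the labels. The members and lists were chosen with earlier results of these data known. Named genes were the 10 members, from each list the 2 genes with the largest mean change per group among those called with both arrays in 1 direction, the 5 nearest to GPX1, GALNT3 and GALNT6. GPX1's neighbours and the cell type markers were named as whole lists or by their extremes. NQO1, KEAP1 and CUL3 were named as the genes of the NRF2 list called lower on the GALNT3/T6-labelled arrays. They were not followed singly under the alternatives.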

Additional observations from a re-analysis of the deposited data

Results flagged for a closer look

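GCLM was below Ctrl on both GALNT3 KO arrays and above it on both GALNT3/T6-labelled arrays, a difference of 1.69 log2 units that was not tested, because the set was chosen on the second group.

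Of the 23 genes named from the pathway lists for the size of their change 1, PTGES, was dim in the KO channel on both GALNT3 KO arrays. It is left out here. Of the other 22, 17 differed between the groups by limma's test of the difference itself. On the GALNT3/T6-labelled arrays, relative to GALNT3 KO, 11 were higher. These were FTH1 (3.80 log2 units), GSTM3 (3.01), GSTO2 (2.99), SQSTM1 (2.42), SOD2 (2.32), TXNRD1 (2.20), MGST1 (2.08), GLRX (1.99), SELK (1.74), TRNAU1AP (1.09) and PRDX5 (1.02). The other 6 were lower, namely HPGDS (-4.44), OPLAH (-3.20), CBS (-2.0), ESD (-1.15), SECISBP2 (-0.72) and PRDX1 (-0.61). Their adjusted p ran from 0.000419 for HPGDS to 0.0369 for PRDX1, beside 23.7% of all genes called in that comparison. The difference no longer passed with Agilent's log ratio for PRDX1 and SELK, with median centring for PRDX1 and SECISBP2, or with the mean of all probes for TRNAU1AP. Over all 12 alternatives, fits with an array left out among them, it passed in 5 for PRDX1 and 7 for SELK. It passed in 8 for SECISBP2 and TRNAU1AP, and in 10 or 11 for CBS, GLRX, TXNRD1, FTH1, PRDX5 and ESD. Only OPLAH, GSTM3, MGST1, GSTO2, SOD2, HPGDS and SQSTM1 passed in all 12. The genes were named because their changes were large, so a difference between the groups is not independent of that choice.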

How the results depend on the processing

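The paper named no test for its array p-values, and a t-test of the 2 log ratios against 0 was among the alternatives here. The 3 calls among the 10 genes in GALNT3 KO became 1, GPX1, with Agilent's log ratio and with the deposited table. They became 1 with that t-test at the study's criterion, beside 931 of all 27223 genes. After Benjamini-Hochberg they became 0 with it (3 at an unadjusted p under 0.05, beside 4000 of all genes). They became 1 with median centring, where the gene called was GSR and none of the 3. They became 6 with the 2 GALNT3 KO arrays alone and ran from 0 to 6 as each array was left out, where a lone array was assumed to vary like the others. On the GALNT3/T6-labelled arrays the 9 calls became 5 at the study's criterion and with those 2 arrays alone, and ran from 5 to 8 as each array was left out. For the 102 list genes the 16 calls in GALNT3 KO became 4 with Agilent's log ratio and with the deposited table and 43 with the 2 arrays alone, and ran from 0 to 43 as each array was left out. The 68 calls on the other arrays ran from 48 to 68, and the 40 between the groups from 11 to 61, as each array was left out. Over all genes the 3005 calls in GALNT3 KO became 590 with Agilent's log ratio, 585 with the deposited table and 9457 with the 2 arrays alone. Except where an alternative uses fewer arrays, the cause was not tested.

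The replicate numbers name clones. The GALNT6 shRNA was added to GALNT3 KO clones, and whether same-numbered clones of the 2 groups are related was not given. With the replicate numbers as a block, the limma count in GALNT3 KO was 0 of the 10 genes, beside 82 of all 27223 genes. At an unadjusted p under 0.05 by limma it was 4, beside 7349 of all genes. The block gave 6 of the 10 genes on the GALNT3/T6-labelled arrays, and 1 of the 102 list genes in GALNT3 KO. Same-numbered arrays tended only weakly to deviate in opposite directions (r = -0.239 over genes). With the pairing crossed, an alternative chosen after seeing the data, the counts were 3, 9 and 17. No value of a single gene that had been called changed sign under any alternative, and 698 of the 874 single-gene values kept their side of the threshold or moved by less than the SD between clones. No scaling moved the median of all genes by more than 0.1 log2 units.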
